A study of Homo sapiens with 6 samples.

Results

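HLA class I genes and their partner were followed on arrays of HSC-3, an established human cell line grown from a squamous carcinoma of the tongue. The 8 genes were HLA-B, HLA-C, HLA-E, HLA-F, HLA-G, B2M, MICA and MICB. Every probe set that the platform annotation gives to 1 of these genes alone was taken, which made 22 of 41091 probe sets with a single gene symbol (8 of 19775 genes), and 1 more probe set is shared by MICA and MICB. The genes were chosen by the measured difference between the groups in these same arrays, so that difference is given for them as a description. Where a fit's calls of that contrast are counted over them, the share over the whole array stands beside the count and the count supports nothing. Of the 22 probe sets, 21 passed the filter on low signal and 1 of B2M did not.

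Gene expression was measured on 3 arrays labelled TAT-2, from HSC-3 cells made to overexpress trypsin-2, and on 3 arrays labelled vector, from HSC-3 cells carrying a control vector. Trypsin-2 is a serine protease encoded by PRSS2. All cells were grown for 48 h, in medium that held serum and hydrocortisone for both groups, and were detached with trypsin before RNA was taken. The labels do not say whether either line is a single clone, which promoter drives the transgene, or whether replicates were separate cultures. The p-values therefore hold only the spread among these samples, possibly a technical one, and the number of arrays limits the precision.

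The label was checked first on PRSS2. Its probe set 205402_x_at gave 20.4, 13.8 and 14.6 on the TAT-2 arrays 1, 2 and 3, and 19.6, 80.8 and 83.2 on the vector arrays. The labels were thus nearly alike in replicate 1, and in replicates 2 and 3 the signal was higher on the arrays labelled vector, against the label. The trypsinogen genes are near-identical copies, and what part of the transcript the transgene carries is unstated in the labels. Every direction below is between arrays as labelled. The replicate 1 arrays of both groups stood apart, since the first principal component of the tested probe sets (45.6% of the variance) parted them from replicates 2 and 3, and the second (21.7%) parted the groups. The squamous label was checked on keratinocyte markers. KRT14, a basal keratin, gave signals from 4554 to 7662, and the summed signal of 7 tested squamous markers was 25156 to 29413 on the TAT-2 arrays and 21985 to 30980 on the vector arrays. Of 13 leukocyte markers on the array 4 passed the filter, the summed signal of all 13 was 140 to 183 on the TAT-2 arrays and 149 to 157 on the vector arrays, and PTPRC, the pan-leukocyte marker CD45, stayed at or below 8.17 on every array.

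HLA class I molecules carry peptides from inside the cell to its surface, where cytotoxic T cells and natural killer cells read them. Each is a heavy chain, encoded in the major histocompatibility complex on chromosome 6, bound to beta-2-microglobulin, which B2M encodes on chromosome 15. HLA-B and HLA-C are classical, highly polymorphic heavy chains, HLA-E, HLA-F and HLA-G are less polymorphic ones, and MICA and MICB are stress-induced relatives that bind no beta-2-microglobulin and are ligands of the receptor NKG2D. Class I promoters are known to hold a kappaB-type enhancer, an interferon-stimulated response element and an upstream module bound by the NLRC5 enhanceosome.

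The promoter sequences are shown so that those of the heavy chain genes can be read beside those of B2M and MICB. RefSeq sequence of GRCh38.p14 was given for 7 of the 8 genes, all but HLA-E. The 250 bases before the transcript start are printed 5′ to 3′ on the strand of the gene, which is the minus strand for HLA-B and HLA-C and the plus strand for HLA-F, HLA-G, B2M and MICB. HLA-G has several annotated starts, and the window that aligns with the other heavy chain promoters is shown. Capitals mark matches, on either strand, to AGTTTCNNT (an interferon-response type core), GGGGATTC (a kappaB-type core) and CCAAT (the CCAAT box), and no matches overlap in the windows shown. These are reference sequences, and the alleles of HSC-3 may differ from them.
HLA-B chr6:31357180-31357429: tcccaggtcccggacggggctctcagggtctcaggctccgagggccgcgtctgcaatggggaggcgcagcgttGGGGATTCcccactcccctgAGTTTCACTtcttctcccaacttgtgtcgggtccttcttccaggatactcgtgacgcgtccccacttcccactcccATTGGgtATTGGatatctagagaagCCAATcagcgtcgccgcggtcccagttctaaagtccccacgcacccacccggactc
HLA-C chr6:31272093-31272342: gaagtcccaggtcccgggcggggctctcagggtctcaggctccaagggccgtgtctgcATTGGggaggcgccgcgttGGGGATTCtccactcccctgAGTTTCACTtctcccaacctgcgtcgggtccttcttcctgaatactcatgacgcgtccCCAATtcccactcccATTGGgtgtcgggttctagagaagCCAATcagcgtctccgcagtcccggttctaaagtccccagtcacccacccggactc
HLA-F chr6:29723184-29723433: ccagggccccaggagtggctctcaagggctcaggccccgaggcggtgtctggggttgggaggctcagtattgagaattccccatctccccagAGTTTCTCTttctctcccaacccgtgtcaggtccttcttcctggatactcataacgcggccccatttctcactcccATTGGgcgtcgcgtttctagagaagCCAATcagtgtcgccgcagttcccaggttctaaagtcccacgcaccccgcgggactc
HLA-G chr6:29827575-29827824: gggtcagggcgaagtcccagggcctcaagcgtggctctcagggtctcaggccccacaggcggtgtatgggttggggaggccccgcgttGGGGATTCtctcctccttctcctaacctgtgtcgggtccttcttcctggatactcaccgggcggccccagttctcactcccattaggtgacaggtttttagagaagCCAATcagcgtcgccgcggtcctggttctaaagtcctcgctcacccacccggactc
B2M chr15:44711267-44711516: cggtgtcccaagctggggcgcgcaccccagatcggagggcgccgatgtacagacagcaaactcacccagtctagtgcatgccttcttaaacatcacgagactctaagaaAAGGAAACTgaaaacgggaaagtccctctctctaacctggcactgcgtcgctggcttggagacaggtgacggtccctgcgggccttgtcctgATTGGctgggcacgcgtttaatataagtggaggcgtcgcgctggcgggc
MICB chr6:31497895-31498144: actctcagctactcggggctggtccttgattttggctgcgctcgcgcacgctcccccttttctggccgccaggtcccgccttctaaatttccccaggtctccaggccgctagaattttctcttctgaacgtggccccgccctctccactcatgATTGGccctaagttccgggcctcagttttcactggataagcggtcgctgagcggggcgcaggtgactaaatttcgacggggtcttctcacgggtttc

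AGTTTCNNT was present in the windows of HLA-B, HLA-C, HLA-F, B2M and MICA, against 3.74% of the 35116 promoter windows of that length. In HLA-B the match lay at bases -157 to -149 from the start, in HLA-F at -158 to -150, and in B2M, on the opposite strand, at -141 to -133. The match in MICA lay nearer the start, at -70 to -62, and overlapped a CCAAT match. GGGGATTC was present in HLA-B, HLA-C and the HLA-G window shown, against 0.772% of all windows. The MICB window held neither. CCAAT was present in every one of these genes, as in 32% of all windows. The motifs were chosen after the sequences had been read, and a match is a description of letters, not a binding site or a cause.

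The heavy chain genes were higher on the arrays labelled TAT-2 and B2M, MICA and MICB were not separated between the groups. The 17 tested probe sets of HLA-B, HLA-C, HLA-E, HLA-F and HLA-G had a median log2 difference of 0.54, TAT-2 minus vector, with a range of 0.07 to 1.11. Of these, 15 end in _x_at, an ending that marks probes shared with other transcripts, and the other 2 had 0.39 (HLA-E) and 0.07 (HLA-F). The 4 tested probe sets of B2M, MICA and MICB had a median of 0.04 and a range of -0.12 to 0.12, and all 27307 tested probe sets had a median of -0.01. Over all 21 tested member probe sets the median was 0.48, and it was 0.051 over the 4 that end in neither _x_at nor _s_at, which are 1 each of HLA-E, HLA-F, MICA and MICB. All differences are on the scale of log2(signal + 16), which understates those of dim probe sets. The arrays read RNA of whole cultures, so more expressing cells and more RNA per cell cannot be told apart.

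HLA-B, the classical heavy chain, had 3 probe sets. All TAT-2 arrays lay above all vector arrays in each, as in 6.73% of all tested probe sets. Probe set 209140_x_at gave 1907, 1997 and 1894 on the TAT-2 arrays 1, 2 and 3, and 1077, 1341 and 1049 on the vector arrays. The mean signal was 1933 ± 56.3 (SD, n = 3) against 1156 ± 161 (SD, n = 3), a log2 difference of 0.74 ± 0.11 (SE). The TAT-2 arrays lay close together, and vector replicate 2 was the highest of its group. The replicate numbers gave differences of 0.81, 0.57 and 0.84 for pairs 1, 2 and 3. The other probe sets of HLA-B, 211911_x_at and 208729_x_at, had differences of 0.65 ± 0.10 and 0.69 ± 0.12 (SE).

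HLA-C, the other classical heavy chain here and a ligand of killer immunoglobulin-like receptors, had 4 probe sets. None overlapped between the groups, with TAT-2 above vector in each, as in 6.73% of all tested probe sets. Probe set 208812_x_at gave 2375, 2780 and 2456 on the TAT-2 arrays and 1739, 1987 and 1671 on the vector arrays, a log2 difference of 0.49 ± 0.10 (SE). Replicate 2 was the highest array within each group. Probe set 211799_x_at gave 587, 593 and 556 on the TAT-2 arrays and 340, 356 and 282 on the vector arrays, a log2 difference of 0.80 ± 0.12 (SE). Its lowest TAT-2 array was well above its highest vector array. Probe sets 216526_x_at and 214459_x_at lay between these, with differences of 0.54 ± 0.11 and 0.67 ± 0.12 (SE).

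HLA-E, which presents leader peptides of other class I chains to the NKG2A receptor of natural killer cells, had smaller differences. Its probe set 200904_at is 1 of the 2 heavy chain probe sets whose name does not end in _x_at. It gave 249.7, 249.3 and 229.3 on the TAT-2 arrays and 189.9, 177.3 and 175.4 on the vector arrays. The means were 243 ± 11.6 and 181 ± 7.90 (SD, n = 3 each), the log2 difference was 0.39 ± 0.11 (SE), and the groups did not overlap. Probe set 200905_x_at gave 1408, 1343 and 1248 against 1020, 1021 and 966.4, a log2 difference of 0.40 ± 0.087 (SE), also without overlap. Probe set 217456_x_at gave 497.7, 481.2 and 468.3 against 469.1, 472.2 and 359.5, and there the groups overlapped, with a difference of 0.16 ± 0.13 (SE) that rested on vector replicate 3 and was 0.03 without it.

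HLA-F, a heavy chain that can reach the surface without peptide, had both the largest and the smallest difference among the heavy chain probe sets. Probe set 204806_x_at gave 630.0, 774.5 and 726.7 on the TAT-2 arrays and 248.0, 480.2 and 274.4 on the vector arrays, a log2 difference of 1.11 ± 0.22 (SE), or 2.15-fold. Vector replicate 2 stood above the other vector arrays, and the pair differences were 1.29, 0.67 and 1.35. Probe set 221875_x_at gave 711.6, 916.8 and 876.0 against 451.1, 633.5 and 567.9, a difference of 0.59 ± 0.15 (SE) with no overlap. Probe set 221978_at was dim, with 17.0, 39.4 and 31.0 against 25.8, 20.5 and 32.4, and the groups overlapped (0.07 ± 0.22, SE), with a difference of -0.09 without TAT-2 replicate 2 and -0.03 without vector replicate 2. The HLA-F probe sets thus gave unlike readings.

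HLA-G, a heavy chain best known from the placenta, had 4 probe sets, all of the _x_at kind, so its signal may hold RNA of its relatives. Probe set 211529_x_at gave 1242, 1193 and 1006 on the TAT-2 arrays and 770.2, 780.5 and 708.4 on the vector arrays, a log2 difference of 0.59 ± 0.11 (SE). Its TAT-2 replicate 3 was the lowest of its group and still above every vector array. Probe sets 211528_x_at and 211530_x_at had differences of 0.48 ± 0.12 and 0.32 ± 0.095 (SE). Probe set 210514_x_at gave 571.0, 426.0 and 375.3 against 333.4, 368.0 and 350.0, which did not overlap, but its difference of 0.35 ± 0.15 (SE) came mainly from pair 1 (0.75, against 0.20 and 0.10) and was 0.15 within replicates 2 and 3.

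B2M, the light chain of every HLA class I molecule, was not separated between the groups. Probe set 201891_s_at gave 4291, 5455 and 5605 on the TAT-2 arrays and 4390, 5489 and 4964 on the vector arrays. The means were 5117 ± 719 and 4948 ± 550 (SD, n = 3 each), and the log2 difference was 0.04 ± 0.12 (SE). Replicate 1 was the lowest array in both groups, and the pair differences were -0.03, -0.01 and 0.17. The sign turned without TAT-2 replicate 2 (-0.0067), TAT-2 replicate 3 (-0.03), vector replicate 1 (-0.04) or both arrays of replicate 3 (-0.02). The difference was 0.17 without TAT-2 replicate 1. Probe set 216231_s_at gave 3977, 5422 and 5187 against 3924, 4805 and 4582, again with overlap and with replicate 1 lowest, and a difference of 0.12 ± 0.13 (SE). The third, 232311_at, was below the filter with signals from 2.05 to 10.9 and was not tested.

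MICA probe set 205904_at gave 62.0, 82.9 and 83.5 on the TAT-2 arrays and 69.6, 80.3 and 72.0 on the vector arrays, a log2 difference of 0.03 ± 0.15 (SE). The groups overlapped. With 1 array left out, the difference ran from -0.03 without TAT-2 replicate 3 to 0.14 without TAT-2 replicate 1. It was also negative without TAT-2 replicate 2 (-0.03), vector replicate 1 (-0.0079) or both arrays of replicate 3 (-0.05). MICB probe set 206247_at gave 561.4, 787.6 and 914.9 against 666.3, 869.0 and 899.5, a difference of -0.12 ± 0.19 (SE), which was 0.08 without TAT-2 replicate 1 and -0.27 without TAT-2 replicate 3. Its replicate 1 arrays were the lowest of both groups. The probe set shared by MICA and MICB, 205905_s_at, gave 142.0, 143.4 and 120.1 against 122.2, 143.5 and 152.7, also with overlap.

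**Figure D1:**
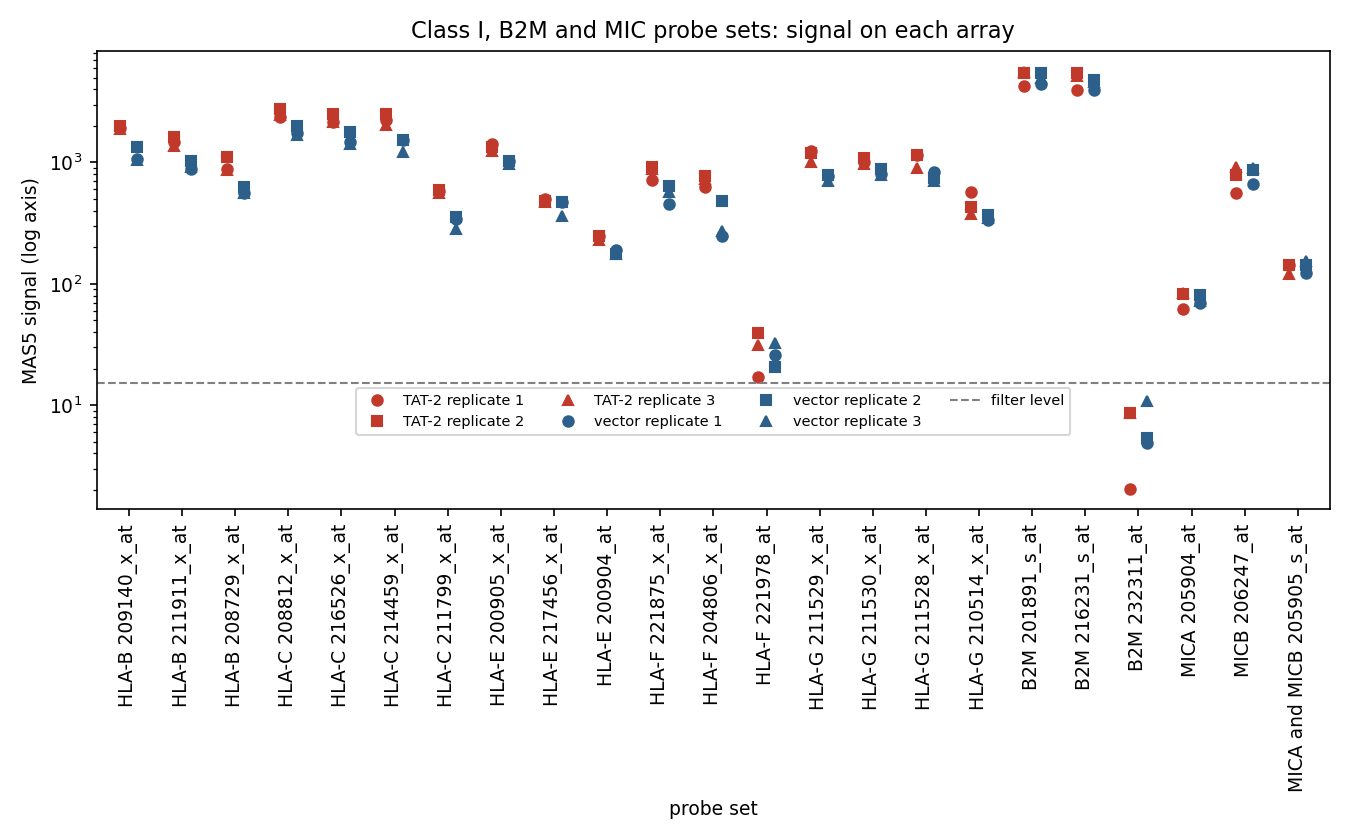
Signal of each member probe set on the 6 arrays, on a log axis, with the arrays labelled TAT-2 and vector as separate points and the filter level of 15.2 as a dashed line. In HLA-B 209140_x_at the TAT-2 arrays lie between 1894 and 1997 and the vector arrays between 1049 and 1341, while both groups overlap in B2M 201891_s_at and MICB 206247_at.

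Counts over the probe sets follow, beside the same over all tested probe sets, and nothing is read from them about the members since the contrast chose them. All TAT-2 arrays lay above all vector arrays in 15 of the 21 member probe sets, against 6.73% of all tested, and below all of them in 0, against 7.35% of all tested. TAT-2 was higher in all 3 replicate numbers in 17, against 18.6% of all tested. With group as the only term, limma called 8 of 27307 probe sets at a Benjamini-Hochberg adjusted p of 0.05 (0.0293%), 2 higher and 6 lower on the TAT-2 arrays, or 5 higher and 8 lower after quantile normalization. None of the 21 was among the 8, and 14 of them had an unadjusted p under 0.05, against 7.86% of all tested.

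With the replicate number as a block, limma called 2.55% of the tested probe sets higher and 2.66% lower on the TAT-2 arrays. An unadjusted p under 0.05 was reached in that fit by 5043 of 27307 tested probe sets and by 15 of the 21. The blocked fit called 14 of the 21 member probe sets higher and 0 lower. Without the intensity trend of the variance, the blocked fit called no probe set on the array, so these calls rest on that setting (4260 of all tested and 14 of the 21 had an unadjusted p under 0.05 there).

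**Figure D2:**
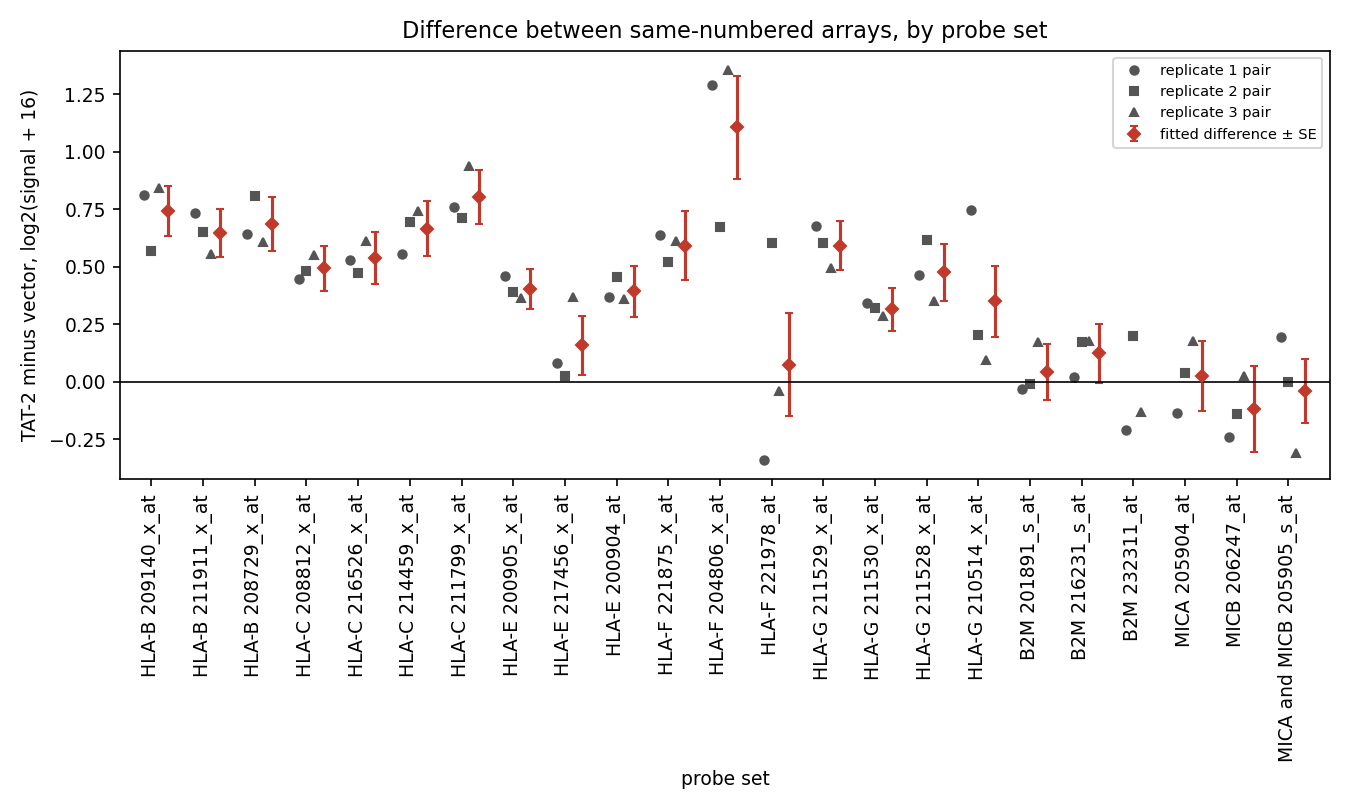
Log2 difference, TAT-2 minus vector, of each member probe set within replicate numbers 1, 2 and 3, on the scale of log2(signal + 16). HLA-B 209140_x_at has 0.81, 0.57 and 0.84, all above 0, and B2M 201891_s_at has -0.03, -0.01 and 0.17.

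The contrast of replicate 1 with replicates 2 and 3 was not used to choose the genes, and it was tested with limma in a model with group and replicate 1 as terms. Over all tested probe sets, 10.0% were lower and 11.4% higher in replicate 1. Among the 21 member probe sets, 4 were lower and none higher. Both directions together gave 4 of 21, against 5863 of all 27307, and nothing is read from so small a count. MICB differed most, with 206247_at at a mean signal of 613.9 in replicate 1 against 867.7 in replicates 2 and 3, a log2 difference of -0.49 ± 0.081 (SE, adjusted p = 0.00169). Both tested B2M probe sets were lower, 201891_s_at at -0.31 ± 0.066 (SE, adjusted p = 0.00732 by limma) and 216231_s_at at -0.34 ± 0.064 (SE, adjusted p = 0.00394 by limma). HLA-F 221875_x_at was the fourth, at -0.36 ± 0.074 (SE, adjusted p = 0.00551 by limma). No probe set of HLA-B, HLA-C, HLA-E or HLA-G passed, and HLA-B 209140_x_at had -0.08 ± 0.091 (SE). The labels do not say what sets replicate 1 apart beyond sample descriptions in another form, and the cause was not tested.

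**Figure D3:**
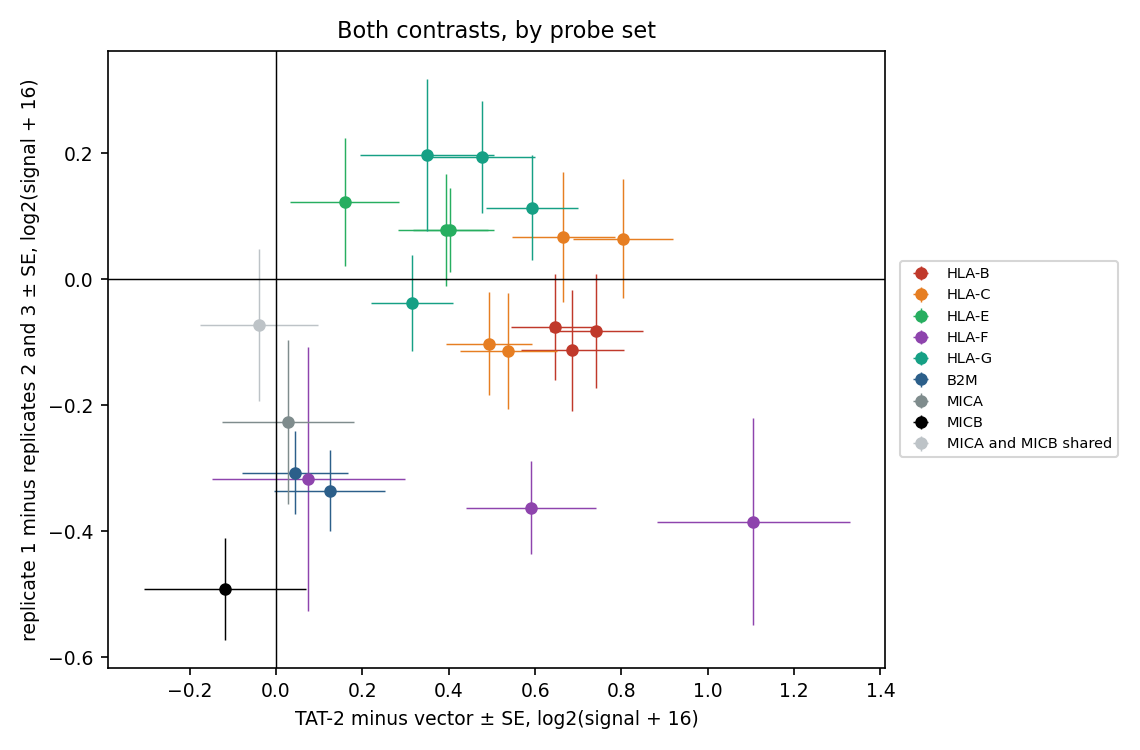
Each member probe set by its log2 difference between groups (TAT-2 minus vector) and its log2 difference between replicate 1 and replicates 2 and 3, with SE bars. MICB 206247_at lies at -0.12 and -0.49, and HLA-B 209140_x_at at 0.74 and -0.08.

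Genes of peptide loading and transport, which supply and assemble class I molecules, were read from a list of 9, all tested. The blocked fit called 1 higher and none lower, and the list median was 0.14. Over all 12151 tested genes that fit called 425 higher and 421 lower. TAP1, a subunit of the peptide transporter, gave 396.7, 502.7 and 550.4 on the TAT-2 arrays and 327.9, 333.7 and 341.3 on the vector arrays. The groups did not overlap, and the difference was 0.50 ± 0.13 (SE with group alone, 0.087 with the replicate block). By limma its adjusted p was 0.00761 with the block and 0.322 without it. Immunoproteasome genes, whose subunits alter which peptides are cut, had 4 tested members, of which the blocked fit called 2 higher and none lower. Both lists are short and were chosen with earlier results of these data known, so nothing is read from their counts. PSMB9 gave 445.9, 828.0 and 840.6 against 343.5, 616.7 and 581.9, a difference of 0.43. Its SE was 0.28 with group alone (limma adjusted p = 0.829) and 0.069 with the block (limma adjusted p = 0.00496). The groups overlapped, because both replicate 1 arrays were low. PSMB8 had 0.33, with an SE of 0.19 with group alone (limma adjusted p = 0.781) and 0.077 with the block (limma adjusted p = 0.0312). None of these 3 genes was thus called with group alone. In a limma model with group and replicate 1 as terms, without the block, all 3 were called. The adjusted p by limma was 0.00953 for TAP1, 0.00519 for PSMB9 and 0.033 for PSMB8 there.

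Upstream genes were not called. Of 14 tested regulators of class I genes, none passed in either limma fit, and the median was 0.01. At an unadjusted p under 0.05 were 0 without the block and 2 with it, where 5043 of all 27307 tested probe sets were. IRF9, a subunit of the interferon-activated factor ISGF3, was 1 of the 2 (0.37, SE 0.21 with group alone and 0.13 with the block). The other was RELA, a subunit of NF-kappaB (-0.16, SE 0.24 with group alone and 0.071 with the block). None of 7 interferon receptor and kinase genes passed in either limma fit, with 0 at an unadjusted p under 0.05 without the block and 1 with it, and a median of 0.10. The smallest p with the block belonged to IFNGR2, a chain of the interferon gamma receptor, and to TYK2, a kinase of the type I receptor. IFNGR2 had 0.26, with an SE of 0.24 with group alone and 0.070 with the block (limma adjusted p = 0.0592 with the block). TYK2 had 0.14, with an SE of 0.13 with group alone and 0.10 with the block.

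Related antigen-presenting genes gave no call either. None of 6 tested class II genes passed in either limma fit, with 1 at an unadjusted p under 0.05 in each. It was HLA-DOA, a modulator of class II peptide loading, at 18.6, 15.5 and 22.4 on the TAT-2 arrays against 46.3, 25.7 and 43.4, lower on every TAT-2 array (-0.63 ± 0.20, SE). HLA-DMA, which helps load class II molecules, had 0.18 ± 0.18 (SE). Of 4 tested other class I-like genes none passed in either limma fit (0 and 1 at an unadjusted p under 0.05), with ULBP2, another NKG2D ligand, at -0.21 ± 0.14 and FCGRT, the neonatal Fc receptor, at 0.28 ± 0.33 (SE). With the block, the SE was 0.077 for ULBP2 and 0.29 for FCGRT. None of 9 tested genes of class I surface turnover passed in either limma fit, with 0 at an unadjusted p under 0.05 in both, SPPL2A at 0.09 ± 0.12 and RNF139 at -0.11 ± 0.15 (SE).

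Markers of other cell types were read beside the heavy chains. None of 4 leukocyte, 3 fibroblast, 1 endothelial and 7 squamous markers tested was called in either limma fit. With the block, 1 leukocyte and 2 squamous markers had an unadjusted p under 0.05, as did 5043 of all 27307 tested probe sets. Without the block no marker did. The leukocyte marker was CD14, with 14.0, 79.5 and 54.4 on the TAT-2 arrays against 9.15, 38.3 and 22.3. Its difference was 0.65, with an SE of 0.43 with group alone and 0.18 with the block, and its part in the HLA values was not tested. ITGAM, an integrin chain of myeloid cells, had -0.28 ± 0.25 (SE). COL1A1 and DCN, fibroblast matrix genes, had 0.22 ± 0.15 and 0.20 ± 0.18, PECAM1, an endothelial adhesion gene, 0.12 ± 0.15, and the basal keratins KRT5 and KRT14 0.31 ± 0.32 and 0.22 ± 0.18 (SE). With the block, the SE was 0.11 for KRT5 and 0.084 for KRT14.

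The other genes that lie between HLA-F and MICB, in the gene order of GRCh38.p14, were also mostly higher on the arrays labelled TAT-2. Of 30 tested genes there that are not members, 29 had a positive difference, with a median of 0.22 and a range of -0.12 for RNF39 to 0.72 for HLA-F-AS1, the antisense gene of HLA-F. The blocked fit called 9 of them higher and none lower, group alone called 0, and 8 had an unadjusted p under 0.05 there by limma. Without genes of HLA or MIC names, 26 of 27 were positive, with a median of 0.21 and 8 called with the block. The 30 tested genes before HLA-F had a median of 0.06, with 21 positive and 1 called, and the 30 after MICB a median of 0.27, with 24 positive and 8 called. Over all 12151 tested genes, 49.5% were positive, the median was 0.00, the blocked fit called 425 higher and 421 lower, and 1140 had an unadjusted p under 0.05 with group alone. These windows were chosen after the values had been seen, and copy number was not measured here.

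**Figure D4:**
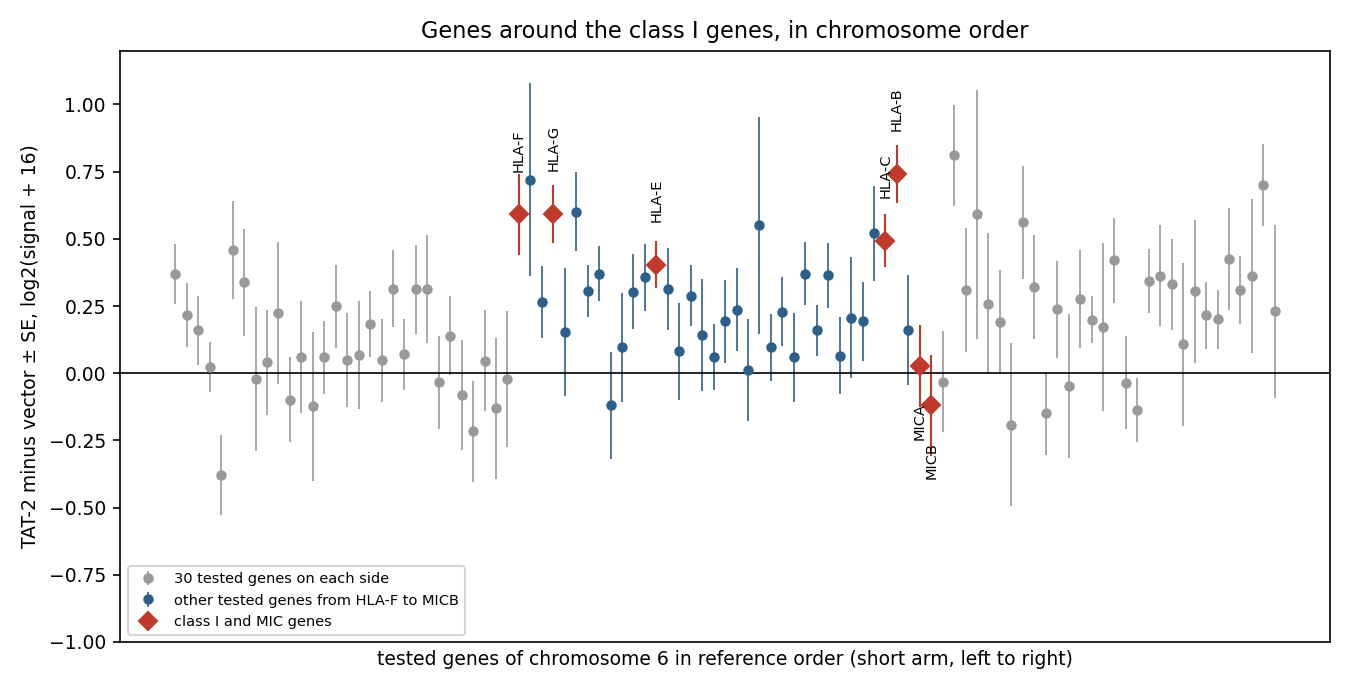
Log2 difference, TAT-2 minus vector, of tested genes in their order along chromosome 6 around the interval from HLA-F to MICB, with members and other genes as separate points. Of the 30 other genes inside the interval 29 lie above 0, with a median of 0.22, while MICB lies at -0.12.

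The genes whose pattern over the 6 arrays was most like the mean z-score of the HLA and B2M probe sets were ranked by Pearson r among 12143 genes, as a description in which the group difference itself takes part. GJB6, which encodes the gap junction protein connexin 30, was the most alike (r = 0.996, n = 6), with 84.1, 141.4 and 98.7 on the TAT-2 arrays and 28.1, 47.1 and 25.9 on the vector arrays. Its groups did not overlap, and replicate 2 was highest in both, as in HLA-B 209140_x_at. TIMM23B, ZNF33B, GSTK1, ARL3, SOX4, DOK5 and SH3PXD2A followed, with r from 0.994 down to 0.982. By chromosome, GJB6 is on 13, TIMM23B, ZNF33B, ARL3 and SH3PXD2A on 10, GSTK1 on 7, SOX4 on 6 and DOK5 on 20. The share of each chromosome among all ranked genes was not taken, and nothing is read from these places.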

How the data were processed

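The authors deposited intensities on a linear scale, 1 per array for each probe set. The submitters' processing notes name MAS5, with no version. Scaling was kept (mean of signals between percentiles 2 and 98 of 100.0 on each array, medians 14.7 to 17.5). The labels give 2 µg of total RNA as the input of each array. Groups and replicate numbers 1 to 3 were read from the sample titles.

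Signals were taken as log2(signal + 16). Of 54613 probe sets that are not controls (62 of 54675 are), 27307 at or above the median (4.96, a signal of 15.2) were tested with lmFit and eBayes of limma 3.58.1 (R 4.3.3), the variance following an intensity trend, no covariate beside group, and Benjamini-Hochberg at 0.05. The steps were tested on simulated data. The platform annotation gave 1801 probe sets several symbols and 11721 none, and 41037 were matched to a GRCh38.p14 table by gene identifier. A gene outside the members is its tested probe set of highest mean. An SE beside a difference between the groups is that of the fit with group alone, unless the block is named.

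Before calls were compared, deviations of same-numbered arrays correlated at 0.64, 0.39 and 0.25 for numbers 1, 2 and 3. Each passed 0.1, so the replicate block is printed where it changes a call. Differently numbered arrays reached 0.32, so pairing of numbers 2 and 3 is not shown by it.

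The named genes are all members, up to 3 called genes per list in the blocked fit or else the 2 of smallest p, and the 8 most alike in pattern. Members and lists were chosen with earlier results of these data known. Alternatives covered pseudocount, filter, scaling, trend, block, batch, probe sets ending in _x_at or _s_at, and arrays left out.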

Additional observations from a re-analysis of the deposited data

How the results depend on the processing

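Against 8 probe sets called on the array with group alone, quantile normalization called 13, centred medians 24, no intensity trend 5, the replicate block 1424, the block without the trend 0, replicate 1 as a batch factor 1232, probe sets ending in _x_at or _s_at left out 36, and replicates 2 and 3 alone 299. Leaving out 1 array gave 0 to 29. The blocked fit without both arrays of replicate 1, 2 or 3 called 827, 656 and 1511. Against 0 of 21 member probe sets (14 at an unadjusted p under 0.05 by limma), the replicate block and the batch factor called 14 each, replicates 2 and 3 alone 8, and the block without replicate 1, 2 or 3 called 12, 12 and 15. With the block, alternatives chosen after seeing the data gave 1584 and 14 (quantile normalization), 1372 and 13 (centred medians), 415 and 12 (no filter) and 1296 and 14 (pseudocount of 1). The member median of 0.48 was 0.051 over the 4 probe sets left without the endings _x_at and _s_at (HLA-E, HLA-F, MICA and MICB). The sign of B2M 201891_s_at turned under 4 alternatives, of MICA under 4, of HLA-F 221978_at under 3 and of MICB under 1. The 5863 probe sets called between replicate 1 and the others became 3867 with no filter, 3288 with no trend and 2665 without those endings. Of 528 member values under the alternatives, 527 moved by less than the spread within groups, and HLA-E 200904_at at a pseudocount of 64 (0.32) by more. With 3 arrays per group, the filter, trend, block and batch settings cannot move a difference, so much of that count was fixed beforehand. The turned signs above are counted among the 527 as well. Scaling moved the median of all tested probe sets by under 0.1.

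Probes shared between HLA genes limit the gene-level reading, since probe sequences were not used here. Signals near 15.2 carry little information, and 3 arrays per group limit the precision.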
